A study of Homo sapiens with 10 samples.

Results

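RBM4 knockout clone 1 is 1 of the 2 knockout clones of HAP1 cells in this RNA sequencing series, and its changes against wild type cells are described here. It was taken with wild type by the labels alone, which give 3 paired-end libraries of RBM4 knockout clone 1 and 3 of wild type, or 6 of the 10 libraries of the series. HAP1 is a near-haploid human line derived from KBM-7, a chronic myeloid leukaemia line, and both groups were grown in the same medium with no treatment named. The 2 paired-end libraries of RBM4 knockout clone 2 served to show where clone 1 stands apart, and the 1 wild type and 1 knockout library sequenced single-end served as values beside the rest. Neither the labels nor the protocols say how the knockouts were made or whether replicates are separate cultures. The p-values therefore reflect the spread among these libraries only, which may be technical. All 3 libraries of clone 1 come from 1 clonal line, so an effect of losing RBM4 and a difference that arose in the line cannot be told apart.

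RBM4 is an RNA-binding protein with RNA recognition motifs and a zinc knuckle. It binds pre-mRNA to steer the choice of splice sites and binds mRNA to tune its translation, and it is known for roles in muscle and neuronal splicing. A change in splicing can alter an RNA's isoforms without altering its total, and the counts used here are totals per gene.

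Levels are given in CPM, counts per 1000000 counts of the library's adjusted total. Total counts ran from 35325400 to 42245194 in wild type and from 33192095 to 55617525 in clone 1. HAP1 cells carry few marks of their blood origin, and of 20 blood lineage markers 15 had a mean below 0.1 CPM over the 6 libraries, with GATA1 and HBB among the 6 without a count. The summed level of these markers was 21.4 to 25.4 CPM in wild type and 27.5 to 34.1 CPM in clone 1. RUNX1 made up most of it, with a mean of 19.3 CPM over the 6 libraries. Of 11 endothelial markers, 9 were below 0.1 CPM, and CDH5, ERG and CLDN5 had no count. Within libraries, levels relative to the gene's mean followed the GC content of genes in different directions. Across genes, Spearman's rho was -0.41, -0.34 and -0.25 in the wild type libraries against 0.28, -0.02 and 0.39 in those of clone 1. In clone 1, 499 of the 2725 most GC-rich genes (60% or above) rose against 35 that fell, while 74 of the 3006 genes under 40% GC rose against 565 that fell. With a correction for GC these became 328 and 152, and 190 and 133. The part of GC in single results was not tested, and list counts with the correction stand beside those it changes.

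RBM4, the targeted gene, held 79.8, 79.8 and 78.7 CPM in the wild type libraries and 22.3, 22.9 and 24.5 CPM in those of clone 1. All 3 libraries labelled clone 1 lay far below wild type, and RBM4 RNA remained in each (log2 fold change -1.77, SE 0.056, adjusted p = 4.43e-10, a fall of 3.42-fold). The read-through gene RBM14-RBM4 fell too (-1.40, adjusted p = 2.18e-09), and RBM4B, the closest paralog of RBM4, rose from 30.5, 30.1 and 30.6 CPM to 52.1, 47.8 and 46 CPM (0.68, adjusted p = 7.49e-06). None of the 3 passed the test between the clones. RBM14 did not pass the test against wild type either (adjusted p = 0.888). On chromosome 11 these genes share or overlap exons, so a read can belong to more than 1 of them. How the counter treated strand is unknown here, and the values of single genes at this locus are uncertain.

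In clone 1, 3321 of 20747 features passed edgeR's quasi-likelihood test against wild type at an adjusted p below 0.05, which is 16.0% of those tested. Of these, 1944 were higher (9.37%) and 1377 lower (6.64%), and 547 (2.64%) changed at least 2-fold. The genes among them were 371 that rose and 171 that fell by at least 2-fold, and 24 repeat subfamilies were called at any size. Protein-coding genes were called most often, 1708 higher and 1270 lower of 13777. Of 3044 long noncoding genes, 187 were higher and 53 lower. Of the 547 features changed at least 2-fold, 520 were also called the same way with GC correction, which called 2677 features in all (12.9%). Of the 2774 called with a smaller change, 1583 were. With only the libraries numbered 1 to 5 in the deposited table (3 of wild type and 1 of each clone, assumed to vary like wild type), 1733 features were higher and 1910 lower. Without wild type replicates 1, 2 and 3 in turn the calls numbered 1605, 1928 and 2315, so the length of this list moved with the wild type libraries used. Each of these fits had a smaller wild type group, and the cause of the drop was not tested. In bulk RNA a gene's level can fall through fewer cells that express it or less RNA per cell, and these cannot be told apart. Clone 2 had 2236 calls against the same wild type libraries (10.8%).

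**Figure D1:**
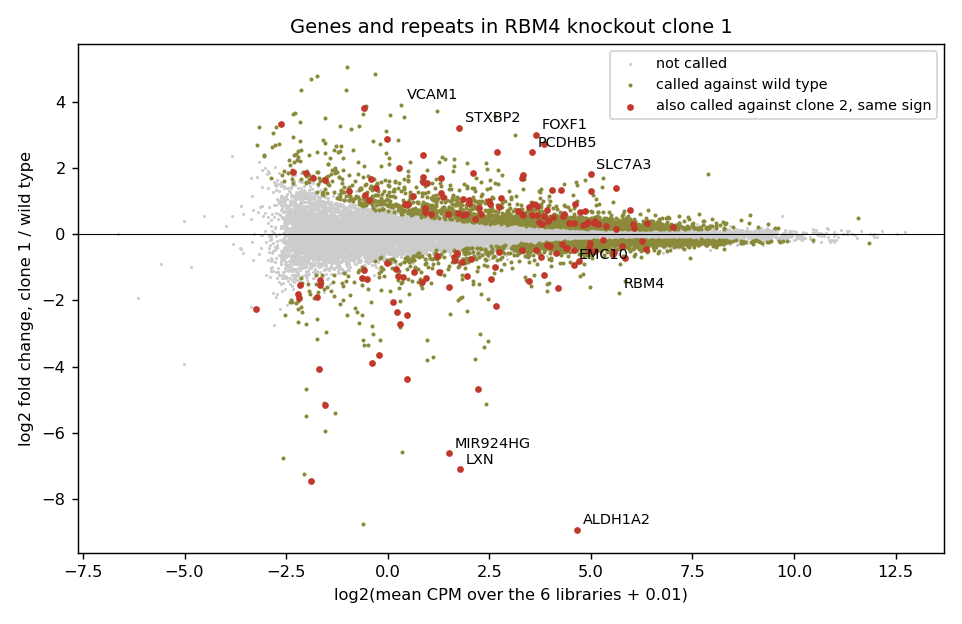
Log2 fold change of clone 1 over wild type against the log2 mean CPM of the 6 libraries (with a small offset), 1 point per gene or repeat subfamily. Grey points did not pass the test, olive points are called against wild type, and the 159 red points are also called against clone 2 with the same sign. Of the labelled genes, ALDH1A2, LXN and MIR924HG lie below -6, and VCAM1 is the highest at 3.92.

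Among called genes with a mean of at least 1 CPM over the 6 libraries, the deepest loss in clone 1 was that of ALDH1A2 (chromosome 15, 57953424 to 58497866), the enzyme that makes retinoic acid from retinal. Its levels were 53, 48.5 and 50.9 CPM in wild type and 0.121, 0.144 and 0.0247 CPM in clone 1, from 6031 counts to 13, a ratio of 506 (95% interval 295 to 950.0) that covers counting error only. LXN (chromosome 3, 158645822 to 158672693), which encodes latexin, an inhibitor of carboxypeptidases, went from 7.00, 6.31 and 7.2 CPM to 0.0604, 0.0361 and 0.0494 CPM, a ratio of 148 (95% interval 67.5 to 404). MIR924HG (chromosome 18, 39206924 to 39800318), the noncoding host of a microRNA, went from 6.01, 4.88 and 6.04 CPM to 0, 0.0541 and 0.0987 CPM, a ratio of 105 (95% interval 50.6 to 262). CAMK2D, a calcium/calmodulin-dependent kinase, went from 2.59, 1.85 and 3.03 CPM to 3 counts in all of clone 1, a ratio of 109 (95% interval 36.8 to 529.6). In each of these 4 genes the clone 1 libraries held almost no RNA, and the rule that named them asked that the groups do not overlap.

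Other genes that fell most kept a low level. The monocarboxylate transporter SLC16A7 fell from 11, 9.67 and 10.3 CPM to 0.453, 0.199 and 0.272 CPM (log2 fold change -5.14, SE 0.20, adjusted p = 2.38e-09). CSRP1, a LIM domain protein of the actin cytoskeleton, fell from 8.33, 9.22 and 9.19 CPM to 0.302, 0.487 and 0.197 CPM (log2 fold change -4.68, SE 0.20, adjusted p = 7.40e-09). The folate hydrolase FOLH1 fell from 2.62 CPM to 0.123 CPM, and CNKSR2, a scaffold of RAS signalling, from 3.62 CPM to 0.271 CPM. With them were the galectin gene LGALS8 (-3.77), the proteoglycan gene SPOCK3 (-3.71), the zinc finger gene ZNF385D (-3.40) and ITPRIPL1 (-3.22). All 12 genes stayed called under every alternative that was run. In all, 21 called genes of at least 0.5 CPM in wild type had 20 counts or fewer over the 3 clone 1 libraries, and 9 of these were also lower than in clone 2.

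Among the genes that rose most, several act at the cell surface or in the matrix. VCAM1 (chromosome 1, 100719742 to 100739045), an adhesion receptor for integrins, rose from 0.166, 0.257 and 0.0485 CPM to 2.45, 2.53 and 2.07 CPM, a ratio of 15.6 (95% interval 9.67 to 26.6). The matrix glycoprotein gene THBS1 rose from 0.736, 1.11 and 1.02 CPM to 7.76, 13.4 and 13.1 CPM (log2 fold change 3.60, SE 0.31, adjusted p = 0.000229), with clone 1 replicate 1 below the other two. CLMP, an adhesion molecule of the immunoglobulin family, rose from 0.204 CPM to 2.4 CPM, and CHST15, which sulfates chondroitin chains, from 1.88, 1.77 and 2.16 CPM to 10.4, 11 and 11.2 CPM (log2 fold change 2.49, SE 0.12, adjusted p = 2.03e-08). DIO2, the deiodinase that activates thyroid hormone, rose from 0.427, 0.285 and 0.242 CPM to 4.83, 3.66 and 4.44 CPM (log2 fold change 3.73, SE 0.22, adjusted p = 1.69e-07). FOXF1 (chromosome 16, 86510527 to 86515418), a forkhead transcription factor of mesenchyme, rose 8.09-fold from 2.9, 2.85 and 2.57 CPM to 23.8, 21.6 and 21.9 CPM (adjusted p = 2.18e-09). The transporters SLC12A3 (3.00) and SLC16A14 (2.73) and the noncoding genes LINC00907 (3.63) and PCAT14 (2.87) completed this group with STXBP2 and PCDHB5, which are described below. Every alternative kept the call of all 12 genes, for which the rule asked that the groups do not overlap.

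**Figure D2:**
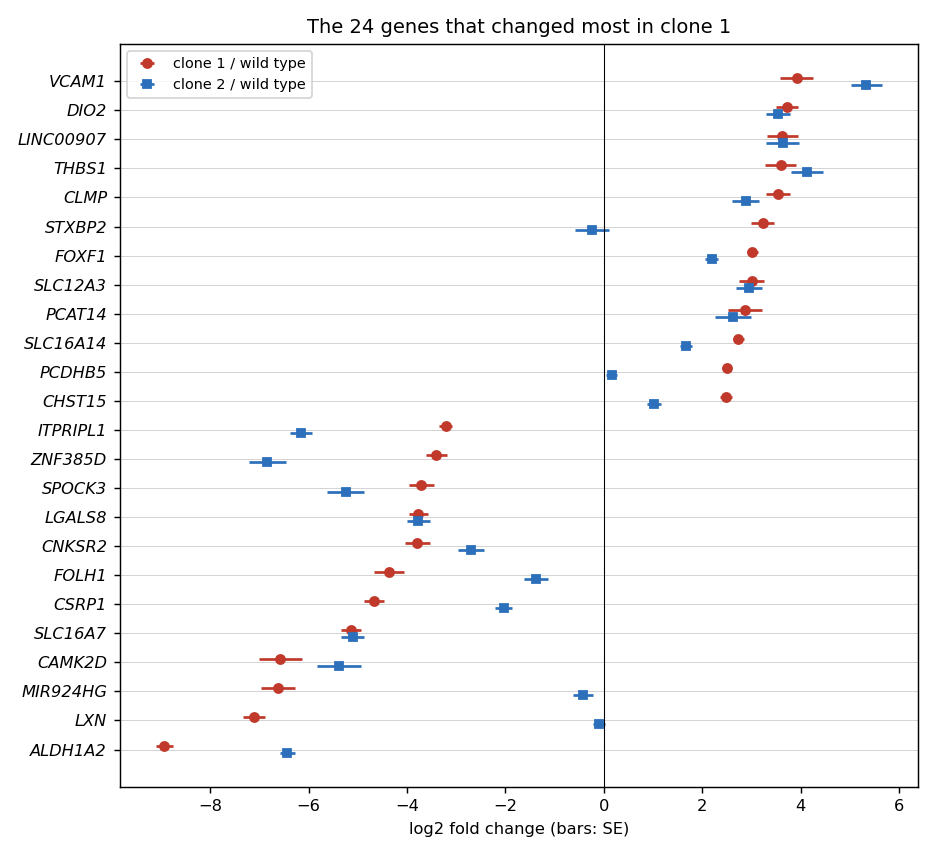
Log2 fold changes against wild type (bars, SE) of the 12 strongest rises and 12 strongest falls in clone 1, with clone 1 as red circles and clone 2 as blue squares. LXN, MIR924HG, STXBP2 and PCDHB5 are far from 0 in clone 1, while clone 2 stands at -0.10, -0.43, -0.25 and 0.16. The clones share their wild type libraries.

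What was particular to clone 1 was taken from a direct test between the clones. Of 20747 features, 434 differed between clone 1 and clone 2 (2.09%). Of these, 88 were also higher than wild type in clone 1 (0.424% of the features tested) and 71 lower (0.342%), and all 159 were genes. The tests against wild type and against clone 2 share the clone 1 libraries. Clone 2 was not called against wild type for 53 of the genes that rose and 43 of those that fell. It was called in the opposite direction for 24 and 13, and in the same direction with a smaller change for 11 and 15. With GC correction 150 of the 159 kept both calls and their direction. Without a clone 2 library the number was lower, 110 without replicate 1 and 85 without replicate 2, and 94 were found with only the libraries numbered 1 to 5.

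Losses for which clone 2 was not called began with LXN and MIR924HG. Clone 2 held 6.46 and 6.29 CPM of LXN, beside the wild type values, and its counts were 137 (95% interval 62.5 to 375) times those of clone 1 relative to library size (difference between the clones, adjusted p = 4.19e-10). GFM1, a mitochondrial elongation factor gene on the opposite strand whose model overlaps LXN (chromosome 3, 158644278 to 158692575), stood at 97.4 CPM in wild type and 86.2 CPM in clone 1 (-0.18, adjusted p = 0.0365), a call lost under 11 of 19 alternatives. For MIR924HG clone 2 held 3.42 and 4.95 CPM (adjusted p = 2.88e-07 between the clones). CHST13, another chondroitin sulfotransferase gene, had 68 counts in wild type, 4 in clone 1 and 50 in the 2 libraries of clone 2, and ARSJ, a sulfatase gene, had 77, 2 and 25. Per library size, ARSJ in clone 2 stood at 0.278 CPM against 0.657 CPM in wild type (not called). In these genes RNA was nearly missing from clone 1 and present in clone 2.

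Other falls were partial. NKX2-1 (chromosome 14, 36516392 to 36521149), a homeobox transcription factor of lung, thyroid and forebrain, fell from 7.29, 9.16 and 8.85 CPM to 3.38, 3.12 and 3.38 CPM, while clone 2 held 7.38 and 6.74 CPM (adjusted p = 0.000217 between the clones). EMC10 (chromosome 19, 50476400 to 50490870), a subunit of the complex that inserts membrane proteins at the endoplasmic reticulum, fell from 28.1, 33.3 and 32 CPM to 16.3, 15.4 and 17.9 CPM, with 35.2 and 32.7 CPM in clone 2 (adjusted p = 7.52e-06 between the clones). The EMC10 libraries of clone 1 thus lay 1.88-fold below wild type, and no library of wild type or clone 2 came under 28 CPM. RAB39A, a small GTPase of vesicle traffic, fell by 1.32 on the log2 scale, and the zinc finger gene ZNF606 fell by 1.45. DAPK1, a kinase linked to cell death, fell from 36.3 CPM to 25.4 CPM with 34.1 CPM in clone 2. The growth factor gene FGF5 (-1.36) and the proprotein convertase gene PCSK5 (-0.78) were lower in clone 1 as well. NKX2-1 was named by a set rule, and the other genes of this paragraph, GFM1, CHST13 and ARSJ were chosen after their values were seen. The same holds for MAP1A, GRIA2, AKR1C3, ALDH3A1, MR1, SPATA6, SPHK1, MX1 and all protocadherins except PCDHB5 that are described next.

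Gains for which clone 2 was not called began with STXBP2. STXBP2 (chromosome 19, 7636881 to 7647873), a Munc18 protein that guides vesicle fusion, rose from 0.451, 0.742 and 0.752 CPM to 6.56, 5.34 and 6.39 CPM, a rise of 9.4-fold (log2 fold change 3.23, SE 0.23, adjusted p = 1.42e-06). Clone 2 held 0.767 and 0.34 CPM, among the wild type values (adjusted p = 5.04e-06 between the clones). MAP1A (chromosome 15, 43510958 to 43531620), a microtubule-associated protein of neurons, rose from 25.5, 28 and 27.2 CPM to 63.9, 76.1 and 72.9 CPM, with 27.8 and 33.5 CPM in clone 2. GRIA2 (chromosome 4, 157204182 to 157366075), a subunit of AMPA glutamate receptors, rose from 11.9, 10.3 and 10.4 CPM to 23.1, 29.7 and 30.6 CPM, with 9.48 and 8.59 CPM in clone 2. For both genes every clone 1 library exceeded every other library, and both differed between the clones (adjusted p = 4.31e-06 and 3.83e-06).

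The steroid and prostaglandin reductase gene AKR1C3 rose from 0.712, 0.799 and 0.994 CPM to 2.57, 3.25 and 2.59 CPM, and the aldehyde dehydrogenase gene ALDH3A1 from 0.427, 0.257 and 0.727 CPM to 2.12, 2.00 and 1.68 CPM. Clone 2 held 1.04 and 0.978 CPM and 0.693 and 0.531 CPM. MR1, which presents vitamin B metabolites to T cells, rose by 1.24, and SPATA6, a sperm flagellum gene, rose by 1.59 on the log2 scale, with clone 2 at -0.31 and 0.59. THY1, a surface glycoprotein of fibroblasts and neurons, rose from 0.427, 0.257 and 0.34 CPM to 1.27, 0.686 and 1.46 CPM with 0.198 and 0.128 CPM in clone 2. Clone 1 replicate 2 was the lowest of its group for THY1, and it still lay above all wild type libraries. The sphingosine kinase gene SPHK1 rose from 8.04 CPM to 14.4 CPM, but its difference from clone 2 (adjusted p = 0.0316) was lost under 7 of 18 alternatives.

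**Figure D3:**
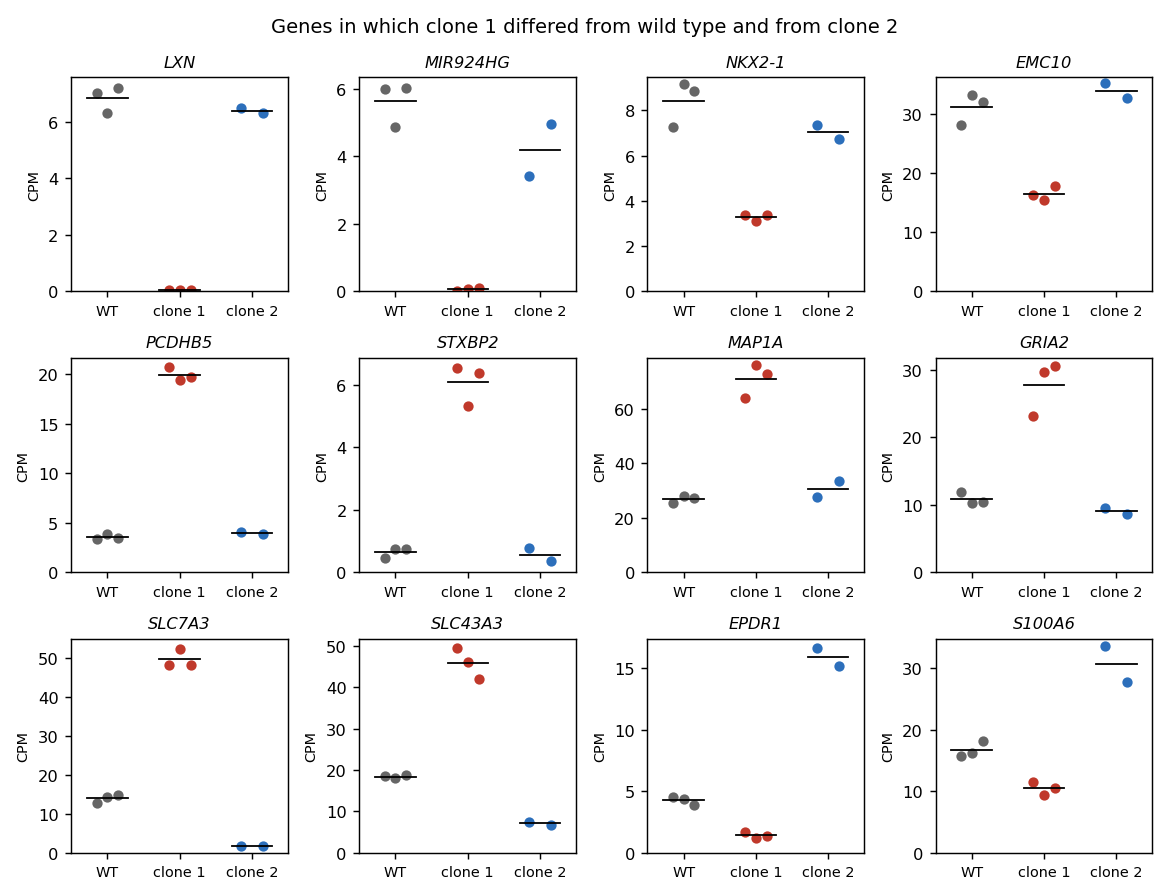
CPM of 12 genes in each library (points) with the group mean (line), for wild type (grey), clone 1 (red) and clone 2 (blue), on linear axes that start at 0. In the first 8 panels clone 2 lies near wild type, and in the last 4 (SLC7A3, SLC43A3, EPDR1, S100A6) the clones lie on opposite sides of wild type.

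Beta protocadherins are single-exon adhesion genes that form a cluster on chromosome 5, and neurons each switch on a few of them, which gives the cells a surface identity. Its members PCDHB4 (chromosome 5, 141121799 to 141125623) and PCDHB5 (chromosome 5, 141135218 to 141138625) were higher in clone 1 than in wild type and than in clone 2. The 250 bases before the RefSeq start of these 2 genes share a run of 16 bases, the longest they have in common. It was searched as GGTGGCGCTGCAGGCT on both strands in 35116 such windows of RefSeq genes (GRCh38.p14), and 4 windows held it (0.0114%), all of beta protocadherins, of which 14 have a window. Of the 4 windows, those of PCDHB4 and PCDHB5 were certain to match, because the run was taken from them. The 4 windows lie on the plus strand and are shown, with the run in capitals, to set the genes that moved beside those that hold the same letters.
PCDHB4, chr5:141121568-141121817: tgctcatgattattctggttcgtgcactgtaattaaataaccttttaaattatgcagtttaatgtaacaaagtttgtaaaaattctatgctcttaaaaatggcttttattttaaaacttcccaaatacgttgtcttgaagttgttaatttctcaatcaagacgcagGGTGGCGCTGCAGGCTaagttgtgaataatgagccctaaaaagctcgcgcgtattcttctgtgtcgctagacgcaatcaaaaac
PCDHB5, chr5:141134956-141135205: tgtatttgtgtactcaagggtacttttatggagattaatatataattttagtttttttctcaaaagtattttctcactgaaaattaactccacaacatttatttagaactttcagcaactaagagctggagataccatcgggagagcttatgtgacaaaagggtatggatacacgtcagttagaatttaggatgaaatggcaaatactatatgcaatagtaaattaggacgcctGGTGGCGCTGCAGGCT
PCDHB10, chr5:141192103-141192352: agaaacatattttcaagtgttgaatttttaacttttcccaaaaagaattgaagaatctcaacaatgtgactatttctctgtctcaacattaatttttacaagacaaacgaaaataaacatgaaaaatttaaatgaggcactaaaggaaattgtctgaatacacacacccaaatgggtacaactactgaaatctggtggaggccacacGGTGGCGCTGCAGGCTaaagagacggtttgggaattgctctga
PCDHB15, chr5:141245145-141245394: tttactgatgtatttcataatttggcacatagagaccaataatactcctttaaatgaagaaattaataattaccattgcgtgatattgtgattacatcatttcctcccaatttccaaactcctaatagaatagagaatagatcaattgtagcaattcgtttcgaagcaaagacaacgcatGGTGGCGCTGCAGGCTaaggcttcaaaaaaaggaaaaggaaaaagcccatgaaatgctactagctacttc
The run starts 84, 16, 43 and 70 bases before the gene start in PCDHB4, PCDHB5, PCDHB10 and PCDHB15. In PCDHB5 the run ends at the edge of the window, so whether the shared stretch is longer cannot be seen. The exact search also misses copies that cross that edge or differ by a base. The match is a description of letters and does not show that a factor binds there.

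PCDHB5 rose from 3.35, 3.88 and 3.4 CPM to 20.7, 19.4 and 19.7 CPM, a rise of 5.64-fold (log2 fold change 2.5, SE 0.095, adjusted p = 2.18e-09), and clone 2 held 4.01 and 3.89 CPM. PCDHB4 had 10 counts in wild type and 157 in clone 1, a ratio of 14.4 (95% interval 7.63 to 30.6), and 13 counts in clone 2. Both genes differed between the clones (adjusted p = 1.22e-08 and 0.00298). The other holders of the shared run did not pass the test, PCDHB10 at 0.46 (adjusted p = 0.368) and PCDHB15 at 0.70 (adjusted p = 0.0621). Over all features 9.37% rose and 6.64% fell in edgeR's test. Of 15 measured beta protocadherins, 6 rose and 0 fell in that test (9 and 0 by unadjusted p below 0.05, 4 and 0 by DESeq2). PCDHB9 (1.3, adjusted p = 0.036), PCDHB11 (1.11, adjusted p = 0.0346), PCDHB12 (1.13, adjusted p = 0.00559) and PCDHB14 (0.56, adjusted p = 0.023) were the others, at low levels. Their calls ended under 7, 9, 1 and 6 of 18, 18, 19 and 19 alternatives, in that order. PCDHB13 went another way, at 0.20 in clone 1 (adjusted p = 0.447) and risen by 1.18 in clone 2.

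The alpha protocadherins, next to the beta cluster, share their last exons with each other, so their separate counts are uncertain. Of 5 measured, 0 rose and 3 fell (0 and 3 by DESeq2 and by unadjusted p below 0.05), namely PCDHA7 (-1.44), PCDHA13 (-1.47) and PCDHAC2 (-1.25). Of all features, 6.64% fell. PCDHAC2 stood at 1.69, 1.71 and 1.65 CPM in wild type and 0.634, 0.848 and 0.592 CPM in clone 1, against 1.53 and 1.76 CPM for clone 2, and it differed between the clones (adjusted p = 0.00752). Of 14 gamma protocadherins 0 rose and 0 fell (1 and 0 by unadjusted p below 0.05, 0 and 0 by DESeq2).

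The APOBEC3 genes, a row of antiviral cytidine deaminases on chromosome 22, formed 1 of the 2 longest runs of neighbours called in clone 1. APOBEC3A (1.55), APOBEC3B (1.70), APOBEC3C (1.79), APOBEC3D (1.69) and APOBEC3F (0.62) rose, as did the next genes measured, the Polycomb gene CBX7 (0.53) and the growth factor gene PDGFB (1.87). APOBEC3B rose from 1.12, 1.06 and 1.28 CPM to 4.47, 3.48 and 3.38 CPM, and clone 2 held 1.36 and 1.21 CPM (adjusted p = 0.000342 between the clones). APOBEC3C rose from 3.02, 2.83 and 3.56 CPM to 10.2, 11.5 and 10.8 CPM and stood higher in clone 2, at 19.6 and 21.4 CPM (adjusted p = 0.000136). The clones thus differed in opposite senses at these neighbours. APOBEC3A and APOBEC3D, each below 1 CPM in the 6 libraries, did not pass the test between the clones (adjusted p = 0.107 and 0.134). These paralogs can share reads. The calls of APOBEC3A, APOBEC3D and PDGFB ended under 1, 1 and 6 of 18, 17 and 17 alternatives.

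**Figure D4:**
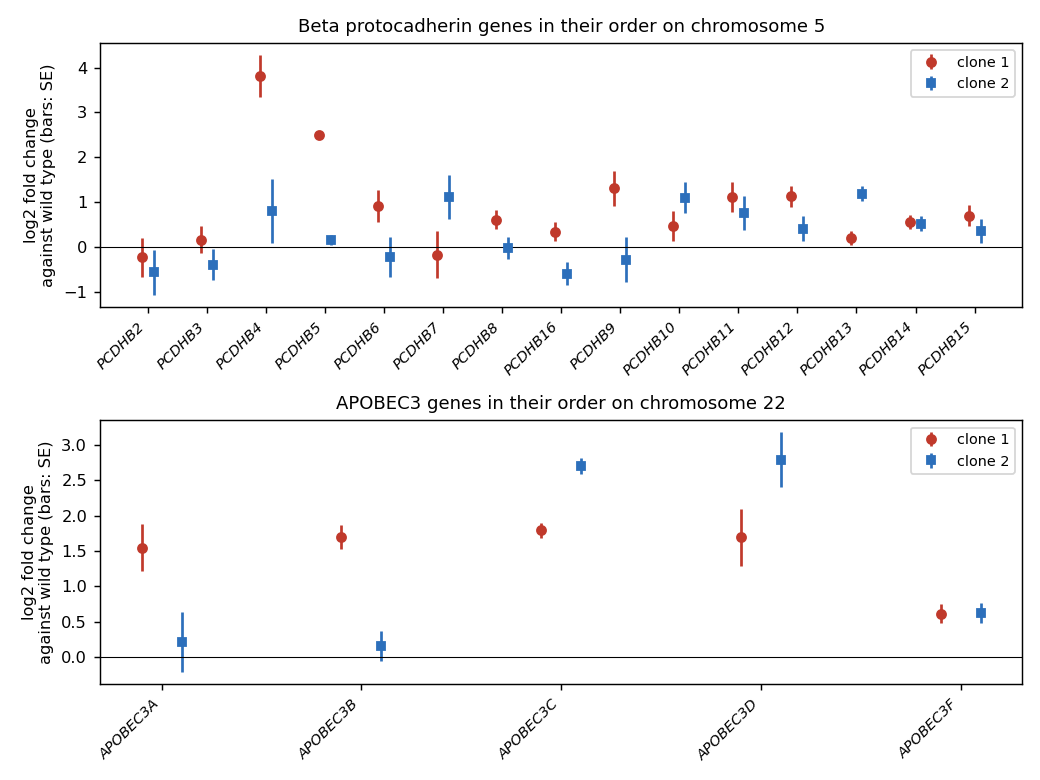
Log2 fold changes against wild type (bars, SE) of the beta protocadherin and APOBEC3 genes in chromosome order, for clone 1 (red circles) and clone 2 (blue squares). PCDHB4 and PCDHB5 stand out in clone 1 at 3.82 and 2.5, and APOBEC3A and APOBEC3B are raised in clone 1 while clone 2 stands at 0.21 and 0.15.

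In 37 genes the clones were called on opposite sides of wild type, 24 of them higher in clone 1. SLC7A3 (chromosome X, 70925582 to 70931125), a transporter of arginine and lysine, rose from 12.9, 14.3 and 14.9 CPM to 48.2, 52.3 and 48.2 CPM in clone 1 and fell to 1.81 and 1.81 CPM in clone 2. SLC43A3, a purine nucleobase transporter, rose from 18.4, 18 and 18.7 CPM to 49.5, 46.1 and 42 CPM in clone 1 and fell to 7.4 and 6.8 CPM in clone 2. ENSG00000254979, which overlaps it on the same strand, moved alike (1.33 and -1.44), and how reads in the overlap were assigned is not given, so the split between the 2 is uncertain. DOC2B, a calcium sensor of vesicle release, rose by 1.10 in clone 1 and stood at -1.66 in clone 2. Clone 1 was highest and clone 2 lowest in each of these genes, an order that their selection required.

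The reverse order was seen in 13 genes. EPDR1, an ependymin-related lysosomal protein, fell from 4.54, 4.39 and 3.88 CPM to 1.72, 1.23 and 1.38 CPM in clone 1 and rose to 16.6 and 15.2 CPM in clone 2. EPHX2, the soluble epoxide hydrolase, went from 2.14, 1.6 and 2.11 CPM to 0.211, 0.469 and 0.42 CPM and to 4.01 and 4.76 CPM, and CNTNAP2, a neurexin-family adhesion protein, from 8.05, 7.45 and 9.36 CPM to 4.2, 4.1 and 4.22 CPM and to 25.1 and 35.9 CPM. GRAMD2B had no count in clone 1 against 63 in wild type, at least 22.9-fold lower with a floor of 3 counts over the group, and 100 counts in clone 2. S100A6, a calcium-binding protein, stood at 15.8, 16.2 and 18.2 CPM in wild type and 11.5, 9.38 and 10.6 CPM in clone 1, against 33.6 and 27.8 CPM for clone 2 (adjusted p = 9.47e-07 between the clones), and was named after its values were seen. The quinolinate enzyme gene QPRT fell from 10.3 CPM to 2.33 CPM in clone 1 and stood at 15.6 CPM in clone 2, and AC009086.2, which overlaps it on the same strand, moved with it (-2.06 in clone 1), so their separate counts are uncertain. The GTPase-activating gene DLC1 (-0.87 against 3.40) and the cilium gene SPAG16 (-0.83 against 1.46) were further cases.

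In the next genes clone 2 was nearly empty or stood below wild type, the rise in clone 1 was moderate, and the gap came mostly from clone 2. SERPINB1, an inhibitor of neutrophil proteases, rose from 10.1, 9.7 and 10.7 CPM to 15.6, 15.5 and 14.3 CPM in clone 1, and clone 2 had 1 count in all. SLC17A9, the vesicular nucleotide transporter, rose from 19.4, 18.9 and 23 CPM to 31.9, 30.4 and 36.2 CPM, and clone 2 had 10 counts. HOXC11, a posterior homeobox gene, was called at 0.68 in clone 1 (adjusted p = 0.0388), a call that 10 of 19 alternatives ended, and clone 2 had 3 counts. MID2, a ubiquitin ligase of microtubules, rose by 0.93, the membrane protein gene TMEM178B by 0.93 and the kallikrein gene KLK1 by 0.91, with clone 2 at -1.80, -1.21 and -1.37. These genes count as particular to clone 1 by the rule, yet clone 1 stood closer to wild type than clone 2 did.

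Some changes went the same way in both clones and further in clone 1. CHST15 reached 10.9 CPM in clone 1 and 3.96 CPM in clone 2 (adjusted p = 8.60e-06 for the difference), SLC16A14 24.8 and 12 CPM (8.64e-05), and FOXF1 22.5 and 12.7 CPM (0.000747). CSRP1 stood at 0.329 CPM in clone 1 and 2.16 CPM in clone 2 (2.13e-05), FOLH1 at 0.123 and 0.995 CPM (0.000217), and ALDH1A2 at 0.0966 and 0.582 CPM (0.00103). The difference between the clones in ALDH1A2 was lost under 1 of 18 alternatives, and it rests on 13 and 51 counts. VCAM1, ITPRIPL1 and ZNF385D moved further in clone 2 (adjusted p = 0.00236, 3.30e-05 and 0.00238).

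The genes around retinoic acid, a morphogen that signals through nuclear receptors, changed in both directions. Of the list, 6 of 17 rose and 4 fell (4 and 4 corrected for GC, median log2 fold change 0.10 against 0.01 over all genes). Over all features 9.37% rose and 6.64% fell, and 21.6% of protein-coding genes were called. These shares stand beside all list counts below. ALDH1A2 fell, and so did ALDH1A3, which makes the same product (-0.44, adjusted p = 0.00876). STRA6, the receptor that takes up retinol, rose from 2.14, 2.28 and 2.16 CPM to 7.88, 8.88 and 8.98 CPM, and CRABP1, which binds retinoic acid in the cytosol, rose from 3.82, 3.37 and 3.98 CPM to 7.92, 7.71 and 7.01 CPM. Both differed from clone 2 (adjusted p = 0.0212 and 0.0259), STRA6 with the larger rise in clone 2 and CRABP1 with the larger rise in clone 1, and 5 and 8 of 18 alternatives ended those calls.

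Immediate early genes and feedback inhibitors of ERK signalling are switched on within the first wave of a growth signal, and 11 of 36 rose and 1 fell (10 and 2 corrected for GC, median 0.27). The calls of this list dropped from 12 on leaving out wild type replicate 1, to 6. The AP-1 genes JUN (2.52, 2.71 and 2.01 CPM to 5.86, 6.25 and 6.93 CPM) and FOSL2 (3.02, 3.77 and 2.74 CPM to 7.13, 8.18 and 9.6 CPM) rose, and SPRY1, an inhibitor of receptor signalling, fell (-1.01, adjusted p = 0.00202). Of receptor tyrosine kinases, 6 of 34 rose and 6 fell (3 and 5 corrected for GC). AXL (1.69) and DDR1 (0.31) rose, and KIT (-0.66) and the ephrin receptor EPHA4 (-0.50) fell. EPHA4 lay lower in clone 1 than in clone 2 and KIT higher (adjusted p = 0.034 and 0.0387 between the clones), and 7 and 9 of 18 alternatives ended these differences.

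Genes of adhesion and matrix were among the lists with the highest shares called. Of extracellular matrix genes, 12 of 35 rose and 6 fell, which became 10 and 10 with GC correction. The matrix list had 11 calls in place of 18 without wild type replicate 1, and as many without replicate 2. SPARC, a matrix glycoprotein, rose from 17.6, 18.3 and 19.8 CPM to 56.9, 63.5 and 59.8 CPM, and the laminin gene LAMB2 by 0.55, while the proteoglycan gene VCAN (-3.19) and the laminin gene LAMA4 (-0.49) fell. Of integrins and immunoglobulin adhesion receptors, 11 of 33 rose and 4 fell (9 and 4 corrected for GC), with L1CAM up by 1.13 beside VCAM1, and the integrin genes ITGA1 (-1.49) and ITGA4 (-0.50) down. ITGA4 encodes part of a receptor that binds VCAM1. Of cadherins, 3 of 22 rose and 8 fell (2 and 8 corrected for GC), led by the desmosomal gene DSC2 (23, 23.7 and 26.1 CPM to 13.3, 14 and 12.4 CPM) and CDH10 (16.3, 15.4 and 17.2 CPM to 5.68, 6.55 and 6.12 CPM), with CELSR1 (0.36) and CELSR3 (0.34) up. SPARC moved further in clone 2, and CDH10 further in clone 1 (adjusted p = 6.24e-05 and 0.0352 between the clones), and the latter difference was lost under 8 of 18 alternatives. The call of CELSR3 against wild type was lost under 7 of 19.

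Of axon guidance genes, 11 of 46 rose and 10 fell. The secreted semaphorins SEMA3D (7.31, 7.53 and 8.03 CPM to 18.1, 20.2 and 20.9 CPM) and SEMA3B (1.14) rose, while SEMA3C (-3.21) and the guidance ligand SLIT2 (31.6, 32.5 and 35 CPM to 19, 20.7 and 17.1 CPM) fell. SLIT2 stood at 26.4 and 25.5 CPM in clone 2 and differed between the clones (adjusted p = 0.0102, lost under 3 of 18 alternatives). Of BMP and TGF-beta genes, 9 of 34 rose and 4 fell (7 and 3 corrected for GC). The ligand BMP7 rose from 3.61 CPM to 6.95 CPM and stood at 52.9 CPM in clone 2, the BMP inhibitor NOG rose by 0.86, and the ligand BMP2 (-0.75) and the coreceptor TGFBR3 (-0.54) fell. Of WNT genes, 9 of 37 rose and 2 fell (8 and 2 corrected for GC), among them the ligand WNT5A (0.48) and the inhibitor NOTUM (1.12) up and the inhibitor DKK1 (-1.99) and the receptor FZD3 (-0.32) down. BMP7 and WNT5A rose less in clone 1 than in clone 2 (adjusted p = 5.57e-11 and 2.85e-05). Of Notch genes, 2 of 25 rose and 1 fell (0 and 4 when corrected for GC, 0 and 1 by DESeq2). Without wild type replicate 1 the WNT list had 6 calls in place of 11, and the Notch list had none without wild type replicate 1 or clone 1 replicate 2 and 1 without any 1 of wild type replicates 2 and 3, clone 1 replicate 3 and clone 2 replicate 2.

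Among transcription factor families, 8 of 30 rose and 1 fell in the forkhead list (6 and 1 corrected for GC). FOXF1 and FOXP2 (1.71) led the rises, and FOXN2 fell (-0.26, lost under 4 of 19 alternatives). Of HOX genes, which set position along the body axis, 5 of 27 rose and 1 fell, with HOXB9 (0.997, 1.34 and 0.97 CPM to 3.05, 3.72 and 3.65 CPM) and HOXB6 (1.03) up. Corrected for GC, the HOX counts became 3 and 3. The full HOX count is close to the 21.6% of protein-coding genes called. Of imprinted genes, 7 of 29 rose and 3 fell (9 and 0 with GC correction). The fetal growth factor gene IGF2 rose from 0.309, 0.343 and 0.364 CPM to 1.54, 1.77 and 1.75 CPM, and KCNQ1 rose by 0.99. Without wild type replicate 1 the forkhead, HOX and imprinted lists had 5, 2 and 4 calls in place of 9, 6 and 10. The HOX list had 3 without wild type replicate 2, and the imprinted list 6 without replicate 3.

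Of interferon-stimulated genes, 9 of 38 rose and 2 fell (8 and 1 corrected for GC), with IFI35 (1.28) and the peptide transporter TAP1 (0.38) up and IFIT1 (-0.56) down. MX1, an antiviral GTPase, stood below 1 CPM in all libraries, rose in clone 1 (1.66, adjusted p = 0.016) and was at -0.63 in clone 2, and 5 of 17 alternatives ended its call. Of nucleic acid sensors and APOBEC3 genes, 7 of 22 rose and 1 fell (6 and 0 by DESeq2), the fall being that of the DNA sensor IFI16 (-2.95). Of stress response genes 5 of 39 rose and 0 fell (12 and 3 by unadjusted p below 0.05, 5 and 0 by DESeq2, 5 and 1 corrected for GC), with PPP1R15A (0.62), which restores translation, and the lipoprotein receptor VLDLR (0.45) first. The stress list's share called lies below that of all features, 16.0%. The interferon-stimulated list had 4, 7 and 7 calls in place of 11 without wild type replicates 1, 2 and 3 in turn, and the stress list 3 and 2 in place of 5 without replicates 1 and 2. Metallothioneins bind zinc and copper, and all 5 measured, chosen after their values were seen, rose. MT2A stood at 135, 146 and 151 CPM in wild type and 207, 206 and 178 CPM in clone 1, and MT1F had the largest rise of the 5 (0.81).

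Of glycolysis genes, 6 of 30 rose and 6 fell (4 and 7 corrected for GC). PFKFB2, which sets the level of a glycolytic activator, rose from 0.902, 1.57 and 1.36 CPM to 4.68, 4.8 and 4.84 CPM, and the glucose transporter gene SLC2A3 fell (-0.68). Of cholesterol synthesis genes, 3 of 29 rose and 3 fell, and 2 and 3 in all were called without wild type replicates 1 and 2 in turn. The full cholesterol count is close to the share called among protein-coding genes, 21.6%. Of ABC transporters, 6 of 25 rose and 4 fell (5 and 4 corrected for GC). ABCB1, the drug efflux pump P-glycoprotein, fell from 23.8, 22.3 and 23.2 CPM to 7.76, 9.01 and 8.02 CPM in clone 1 and to 0.941 and 1.04 CPM in clone 2, so that clone 1 kept more than clone 2 (adjusted p = 5.80e-09 between the clones), and ABCA3 fell by 0.70 on the log2 scale.

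Called genes of the cell cycle mostly fell, and fewer were called with GC correction. Of mitosis genes, 1 of 31 rose and 6 fell, with a median log2 fold change of -0.07 and a median GC of 43.1%, and with GC correction 0 and 1. Of DNA replication genes 0 of 39 rose and 8 fell (1 and 11 by unadjusted p below 0.05, 0 and 9 by DESeq2), and with GC correction 1 and 4. GINS1 of the replicative helicase (-0.27) was the fall with the smallest p in that list. Of p53 targets, 3 of 24 rose and 2 fell (2 and 1 corrected for GC), with BTG2 (0.40) up and MDM2 (-0.28) down. The mitosis, replication and p53 counts are also close to the 21.6% of protein-coding genes called. Of clock genes 1 of 22 rose and 0 fell (2 and 2 by unadjusted p below 0.05, 1 and 1 by DESeq2). Of retroelement silencing factors 0 of 28 rose and 5 fell (2 and 9 by unadjusted p below 0.05, 0 and 7 by DESeq2), and 0 and 2 after correction for GC. The clock and silencing shares called were 4.5% and 17.9%, against 16.0% of all features. Without wild type replicate 1 the mitosis, replication, p53, clock and silencing lists had 0, 1, 3, 0 and 1 calls. The mitosis list had 3 without wild type replicate 2 and 11 without clone 1 replicate 2. The replication list had 3, 4 and 4 without wild type replicate 2, wild type replicate 3 and clone 1 replicate 3. The clock list had 3 without clone 1 replicate 2 and none without wild type replicate 2, wild type replicate 3 or clone 1 replicate 3.

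Of splicing regulators, the class RBM4 belongs to, 3 of 55 rose and 12 fell, with a median GC of 41.1%. With GC correction 5 rose and 4 fell, so the excess of falls depended on the correction. In place of 15, 7 members were called without wild type replicate 1. CELF2, which binds GU-rich RNA, rose from 28.5, 29.7 and 32 CPM to 35.9, 39.6 and 38.5 CPM and stood at 18.4 and 19 CPM in clone 2, on the other side of wild type (adjusted p = 1.64e-06). RBM47 rose (0.72), and MBNL3 (-0.45) and NOVA1 (-0.40) fell. Of the 19 measured genes around RBM4 on chromosome 11, 7 rose and 2 fell (5 and 2 with GC correction), and the falls were RBM4 and its read-through gene. The lysosomal protease gene CTSF, a few genes away, rose from 25.9, 27.2 and 29.6 CPM to 46.1, 42 and 45 CPM.

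Markers of other cell types moved with these lists. Of epithelial markers 6 of 9 rose and 0 fell (7 and 0 by unadjusted p below 0.05, 3 and 0 by DESeq2, 5 and 0 corrected for GC), with KRT18 at 37.5, 35.8 and 41.2 CPM in wild type and 57.2, 48.4 and 48.8 CPM in clone 1. Their summed level, mostly of KRT18, was 63.1 to 68.6 CPM in wild type, 83.7 to 91.5 CPM in clone 1 and 94.05 to 103 CPM in clone 2. Among them, KRT5 and GRHL2 had no count. On leaving out wild type replicate 1 or 2, 3 of them were called. Of mesenchymal markers 3 of 10 rose and 4 fell (3 and 3 corrected for GC), with TAGLN (0.88) up and ZEB2 (-0.37) and CDH2 (-0.34) down, and CDH11, LUM and DCN had no count. The summed mesenchymal level was 601.2 to 635.8 CPM in wild type, 478.5 to 549.8 CPM in clone 1 and 547.7 to 552.6 CPM in clone 2. Of neural markers 2 of 9 rose and 1 fell (1 and 1 corrected for GC, 2 and 0 by DESeq2). TUBB3 (0.32) and NES (0.24) rose, and the fall was that of SOX1, from 75 counts to 2, a ratio of 40.9 (95% interval 10.9 to 344). Of pluripotency markers 1 of 10 rose and 2 fell. LIN28B fell from 56.2, 54.2 and 56.8 CPM to 36.7, 38.1 and 36.9 CPM and POU5F1 by 0.24 on the log2 scale, and ESRG, a transcript from a HERVH element, rose by 1.02. Of 2 measured blood markers ITGA2B rose (0.71), and both were called without clone 1 replicate 1, and of 2 endothelial markers 0 were called (1 and 0 by unadjusted p below 0.05, 0 and 0 by DESeq2). Whether changes in cell state underlie other lists was not tested.

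**Figure D5:**
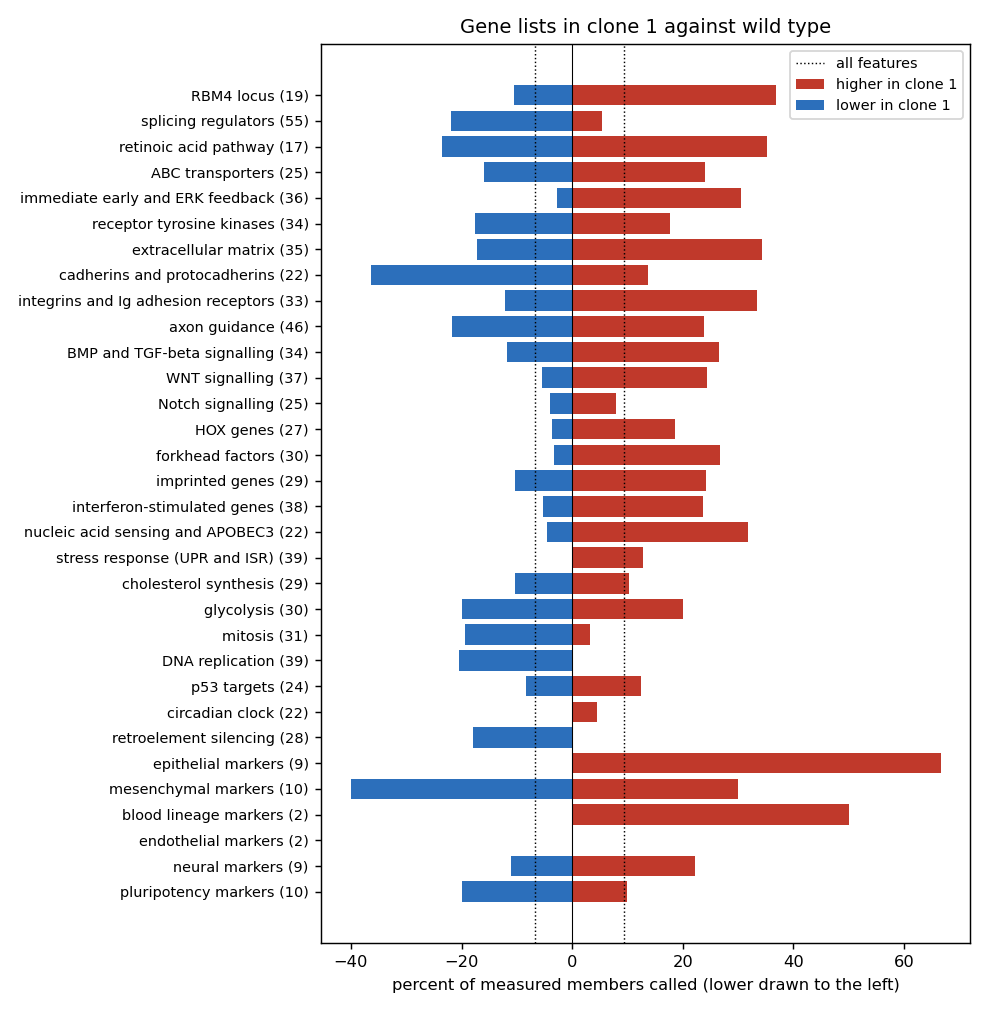
Percent of the measured members (number in brackets) of each of 32 gene lists that were called higher (red, to the right) or lower (blue, to the left) in clone 1 than in wild type, with dotted lines at the shares of all features, 9.37% and 6.64%. Bars of immediate early, WNT and forkhead genes pass the line on the right alone, and those of mitosis, replication and splicing genes the line on the left alone, before GC correction.

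Along the genome the medians of whole chromosomes lay close to 0, between -0.10 on chromosome 13 and 0.09 on chromosomes 19 and 22. Among 377 windows of 50 neighbouring genes they lay between -0.22 and 0.25 (-0.19 to 0.20 with GC correction). The window with the highest median lay on chromosome 19 (6389638 to 8343262) around PNPLA6 (0.12, not called), with a median GC of 60.1%, and its median fell to 0.15 with GC correction. The next lay on chromosome 16 (62596372 to 67657569) around HSF4 (0.46, not called). Runs of at least 4 neighbouring genes called in the same direction numbered 21, of which 16 were higher. Beside the APOBEC3 run, the longest had 7 genes on chromosome 16 from BBS2 (0.20, lost under 10 of 19 alternatives) through the metallothioneins to ENSG00000259827. The next had 6 genes that fell on chromosome 7, with ABCB1 (-1.48) and RUNDC3B (-0.77) ahead of SLC25A40 (-0.27), DBF4 (-0.27), ADAM22 (-0.24) and SRI (-0.28). The last 4 lost their calls with GC correction.

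Repeat subfamilies were called less often than features as a whole, a difference that was not tested. Of 1064 tested, 11 rose and 13 fell, 2.26% against 16.0% of all features. The median of all repeats was -0.18, against 0.01 over all genes. HERVH-int, the internal part of an endogenous retrovirus that is active in pluripotent cells, rose from 388, 376 and 396 CPM to 536, 634 and 579 CPM (log2 fold change 0.59, SE 0.063, adjusted p = 3.81e-05). Its promoters LTR7 (26.5, 28.2 and 29.3 CPM to 35, 37 and 38.4 CPM) and LTR7Y (8.45, 9.47 and 11.1 CPM to 23.7, 21.2 and 20.5 CPM) rose as well, LTR7Y by 1.17. LTR5_Hs, the promoter of the youngest HERVK elements, rose by 0.40, and HERVK-int did not pass the test (742, 1132 and 1090.0 CPM against 594, 719.6 and 714 CPM, adjusted p = 0.0899). The groups did not overlap for HERVH-int, LTR7, LTR7Y, LTR5_Hs or HERVK-int, with clone 1 the lower group for HERVK-int alone. The share of all features without overlap is not given here. HERVK13-int fell from 6.34, 7.65 and 7.64 CPM to 2.81, 3.77 and 4.44 CPM (log2 fold change -0.96, SE 0.15, adjusted p = 0.00083).

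The number of called repeats moved with single libraries. It was 5, 10 and 75 without wild type replicates 1, 2 and 3 in turn, and 14 and 73 without clone 1 replicates 2 and 3. Other called repeats stood near the threshold, with MER41G (0.65) and HERV15-int (0.80) up and MER133A (-1.49), UCON79 (-1.48), MER97d (-1.29) and LTR38-int (-1.23) down. Their calls ended under 7, 16, 14, 6, 1 and 11 of 19, 18, 16, 17, 19 and 17 alternatives, in that order. Young mobile elements were not called, L1HS at -0.06 (adjusted p = 0.755), AluY at 0.06 (0.765) and SVA_D at 0.21 (0.124). Between the clones 4 repeat subfamilies differed in edgeR's test, and 0 repeats were particular to clone 1 (23 at an unadjusted p below 0.05 in both tests, 0 with DESeq2).

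The single-end pair has 1 library per group and no replicate check, and its labels do not say which knockout clone was sequenced. Its log2 ratios are therefore set beside those of clone 1 as values only. ALDH1A2 had -6.44, RBM4 -1.74, DIO2 3.85 and HERVH-int 0.61, against -8.94, -1.77, 3.73 and 0.59 in clone 1. LXN had -0.05 in the single-end pair, MIR924HG 0.23, PCDHB5 -0.60, STXBP2 -1.20, GRIA2 -0.08, EMC10 -0.04 and SLC7A3 -3.07. Of the 24 genes that changed most in clone 1, 21 had the same sign in the single-end pair. Of the 24 furthest from clone 2, 4 had. Of the genes particular to clone 1 for which clone 2 was not called, 90 had a single-end value and 43 of these had the same sign. Among them, 41 had a change of at least 2-fold in clone 1, and 2 of these had a change of that size and direction in the single-end pair.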

How the data were processed

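RNA of HAP1 cells was measured by poly(A) RNA sequencing with the TruSeq Stranded mRNA kit from 65 ng of input RNA, per the labels' protocols, in 8 paired-end libraries (3 wild type, 3 of RBM4 knockout clone 1, 2 of clone 2) and 2 single-end libraries. The deposited values are raw counts per gene and per repeat subfamily, made with TEToolkit as the names of the deposited tables state, and STAR 2.5.2a and GRCh38 are named in the submitters' processing notes. The settings of the counter for strand and multiple matches were not given in these sources. The authors' counts cover 58051 genes and 1187 repeat subfamilies, of which 56948 gene identifiers matched a symbol and 57447 matched GENCODE 29 coordinates. Coordinates are GRCh38 throughout, and promoter windows are RefSeq's.

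Counts were filtered with filterByExpr, scaled by TMM and tested with edgeR 4.0.16 (robust quasi-likelihood fit, 1 mean per group, all 8 paired-end libraries) in R 4.3.3. P-values were adjusted by the Benjamini-Hochberg method over 20747 features, and a feature was called below 0.05. A gene was particular to clone 1 where clone 1 was called against wild type and against clone 2 with the same sign. SE is the fold change divided by the root of its F statistic. Intervals of count ratios are exact and cover counting error only. GC correction entered, as offsets of the fit, a loess trend (span 0.3) of level on gene GC in each library. Single-end log2 ratios used a prior count of 2 and a minimum of 20 counts. Total counts were 33192095 to 55617525 in the paired-end libraries of wild type and clone 1, and no replicate pair agreed within counting noise (chi-square per degree of freedom 4.54 to 22.1).

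On simulated counts with 50 changed genes per fold size, the same fit of clone 1 against wild type over 20747 features recovered 40% at 1.3-fold, 42% at 1.5-fold, 66% at 2-fold and 90% at 4-fold, and called 10 of 20547 unchanged features. The simulated libraries carried no GC trend, unlike the real ones. The simulation therefore cannot say how many real calls follow from that trend. Named genes were the RBM4 neighbours, the 12 per direction with the largest called change at a mean of at least 1 CPM and no overlap with wild type, the 12 per direction with the largest difference from clone 2 among those particular to clone 1, up to 4 per direction called oppositely in the clones, and up to 2 called members per direction of each list. Up to 5 repeats per direction and 8 set ones, the 3 longest runs and the middle genes of 2 windows were added, and genes outside these rules are marked. The members and gene lists were chosen with earlier results of these data known. Alternatives were DESeq2 1.42.0, other scaling, filters, GC correction, blocks and leaving out each library. The spike-ins named in the protocol were not used, and some items are not reported here.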

Additional observations from a re-analysis of the deposited data

Results flagged for a closer look

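The genes below are listed because the effects of knockout clones 1 and 2 under the same contrast with wild type differed in edgeR's test of the clones themselves at an adjusted p below 0.05. Values are log2 differences, clone 1 minus clone 2, and they share the clone 1 libraries with the test against wild type.

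Genes higher in clone 1 than in wild type and in clone 2, with clone 2 not called against wild type, were STXBP2 (3.48), PCDHB4 (3.02), PCDHB5 (2.33), MAP1A (1.21) and GRIA2 (1.63). With them were AKR1C3 (1.48), ALDH3A1 (1.66), MR1 (1.55), SPATA6 (1.00), APOBEC3B (1.55) and MX1 (2.29), and further PDGFB (4.73), SPHK1 (0.51) and THY1 (2.77).

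Genes nearly lost from clone 1 and lower there than in clone 2 included LXN (-7.01), MIR924HG (-6.20), CHST13 (-4.07), ARSJ (-3.96) and GRAMD2B (-8.59). The value of GRAMD2B, with no count in clone 1, depends on the prior count. Others lower in clone 1 than in clone 2 included NKX2-1 (-1.10), EMC10 (-1.04), RAB39A (-1.51), ZNF606 (-1.36), DAPK1 (-0.42), FGF5 (-1.54) and PCSK5 (-0.69). Among adhesion genes these were PCDHAC2 (-1.23), PCDHB13 (-0.99), CDH10 (-0.55) and CDH2 (-0.31). PCDHB13 was not called against wild type in clone 1 and rose in clone 2.

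Where clone 2 had fallen or nearly lost the RNA, the differences were SERPINB1 (10.04), SLC17A9 (8.13), HOXC11 (5.96), SLC7A3 (4.78), DOC2B (2.77) and MID2 (2.73). The same order was seen in SLC43A3 (2.69), ENSG00000254979 (2.77), KLK1 (2.28), TMEM178B (2.14) and CELF2 (1.02). The reverse order, with clone 2 above clone 1, was seen in EPDR1 (-3.48), EPHX2 (-3.51), CNTNAP2 (-2.87), DLC1 (-4.26) and SPAG16 (-2.28), and in QPRT (-2.76), AC009086.2 (-2.52) and S100A6 (-1.55).

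Rises or falls that went further in clone 1 gave CHST15 (1.47), SLC16A14 (1.06), FOXF1 (0.83) and CRABP1 (0.57) and CSRP1 (-2.64), FOLH1 (-2.99), ALDH1A2 (-2.50), SLIT2 (-0.45), EPHA4 (-0.36) and LIN28B (-0.37). Changes that went further in clone 2 gave VCAM1 (-1.42), BMP7 (-2.93), SPARC (-0.68), STRA6 (-0.50), WNT5A (-0.71) and APOBEC3C (-0.91), ESRG (-1.59) and NES (-0.46) and ABCB1 (3.06), ITPRIPL1 (2.94), ZNF385D (3.44), RUNDC3B (1.25), LAMA4 (0.70), BMP2 (0.84) and KIT (0.47).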

How the results depend on the processing

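RBM4 fell by 1.67 to 1.83 on the log2 scale over 19 alternatives. Leaving out 1 library at a time gave 1605 to 3229 calls against wild type (3321 with all), with 1605 and 1928 without wild type replicates 1 and 2. It gave 224 to 418 calls between the clones (434), with 284 and 224 without clone 2 replicates 1 and 2, and 85 to 147 genes particular to clone 1 (159). For clone 2 it gave 1033 to 2747 calls (2236), with 1033 and 1449 without clone 2 replicates 1 and 2 and 1268 without wild type replicate 1. Called repeats ranged from 5 to 75 (24), with 5, 10, 14, 73 and 75 without wild type replicates 1 and 2, clone 1 replicates 2 and 3 and wild type replicate 3. With no filter on low counts, 688 features differed between the clones, 245 genes were particular to clone 1 and 87 repeats were called. With the libraries numbered 1 to 5 these were 224, 94 and 95, and a term for that numbering gave 72 repeats. Of features not called in any case, AluY (0.06) was -0.12 with the libraries numbered 1 to 5 and -0.0022 with the numbering term, and -0.10 to 0.13 on leaving out 1 library. L1HS (-0.06) was -0.19 to 0.034 on leaving out 1 library, and 0.02 without clone 1 replicate 1. PCDHB13 (0.20) was -0.16 and -0.013 under those 2 numbering settings. RBM14 was 0.029 with the numbering term, -0.043 to 0.0052 on leaving out 1 library, and 0.00052 without wild type replicate 2. The highest window median of 0.25 was 0.11 with clone 1 replicate 2 alone. The cause of these moves was not tested. Same-numbered wild type and clone 1 libraries did not deviate together (correlations -0.05, -0.05 and -0.23), so the numbers were not used as pairs. Differently numbered libraries reached 0.18, and 3 libraries per group cannot exclude a pairing. A replicate block gave 3716 calls against wild type, 431 between the clones, 152 genes particular to clone 1, 2526 calls for clone 2, 21 repeats and -1.77 for RBM4. The block with GC correction gave 2719, 471, 169, 1996, 21 and -1.67. Over the gene and repeat results named, 4353 of the values under an alternative kept their direction and side of the threshold, 279 lost the call and 13 gained it. Without clone 2 no test between the clones could be fitted with the 6 libraries alone. In the simulation of clone 1 against wild type, fewer than 50% of changes of 1.5-fold or less were detected.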

Other observations

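Genes close to silence in 1 of the 2 states, chosen after their values were seen, add further names. Counts are given over the libraries with no test. Transcription factors of embryonic development were among the 21 genes nearly lost from clone 1. HAND2, a factor of heart and limb, had 60, 50 and 42 counts in the wild type libraries and 5, 7 and 4 in clone 1. FLI1, an ETS factor of blood and endothelium, had 27, 21 and 12 counts and 0, 8 and 3 counts. Clone 2 was low in both as well. HAND2 had means of 1.29 CPM in wild type, 0.125 CPM in clone 1 and 0.315 CPM in clone 2, and FLI1 0.510, 0.0728 and 0.108 CPM. Neither gene was particular to clone 1.

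In the other direction, 39 called genes had 20 counts or fewer over the wild type libraries and at least 0.5 CPM in clone 1, and 2 of them, PCDHB4 and MX1, were particular to clone 1. SLC8A1, a sodium/calcium exchanger of heart muscle, had 4, 1 and 0 counts in wild type and 24, 64 and 36 in clone 1. CRYAB, a small heat shock protein, had 9, 4 and 6 counts and 21, 63 and 42 counts. KRT15, a keratin of basal epithelium, had 0, 2 and 0 counts and 25, 28 and 17 counts. S100A16 had 6, 4 and 1 counts and 49, 56 and 46 counts, and it belonged to the S100 calcium-binding genes, of which 5 of 7 rose and 1, S100A6, fell in clone 1, while all 7 rose in clone 2. Of all features, 9.37% rose and 6.64% fell in clone 1, and 10.8% were called in clone 2.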
